A study of Homo sapiens with 6 samples.

Results

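The regions described here are the TET2 peaks that were called in DMSO-treated THP-1 cells and shared no base with any TET2 peak called after OPA1. THP-1 is an established human line of monocytic character, grown from an acute myeloid leukaemia. Cells spent 48 hours with DMSO, the vehicle, or with OPA1, which is what the submitters call the added compound. Chromatin immunoprecipitation with sequencing (ChIP-seq) used an antibody to TET2 or to EGR1, with an input library without antibody for each treatment, and every group had 1 library. Members were chosen by position in the deposited peak lists: of 882 DMSO TET2 peaks on chromosomes 1 to 22 and X, 712 (80.7%, Wilson 95% interval 78 to 83.2%) had no overlap of 1 bp with the 1683 OPA1 TET2 peaks, and 170 were shared. That split is the choice itself and carries no test. With 1 library per group, no difference between the treatments can be tested, and the intervals below cover counting error only.

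TET2 is a dioxygenase that oxidises 5-methylcytosine at CpG dinucleotides, a step towards removal of the methyl group, and it lacks the CXXC zinc finger with which TET1 and TET3 contact unmethylated CpG. It is brought to DNA partly by other factors, and its gene is often mutated in myeloid leukaemia. EGR1 is an immediate early zinc-finger transcription factor that takes part in monocyte differentiation and binds GC-rich sites at promoters.

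The promoters under these peaks show the sequence at the gene starts that they touch. RefSeq promoter windows of GRCh38.p14, from 250 bases before to 50 after a gene start, were held for 15812 protein-coding genes and for other genes, and 668 of the DMSO-only peaks lay on a chromosome with such windows. Of these, 22 (3.29%, 2.18 to 4.94%) touched such a window. Below are the bases of the window that lie both under the peak and upstream of the start, 5′ to 3′ on the strand of the gene, with every CpG in capitals. They were chosen to show the range from CpG-rich to CpG-poor starts.
DPM3 (chr1:155140532-155140713, minus strand): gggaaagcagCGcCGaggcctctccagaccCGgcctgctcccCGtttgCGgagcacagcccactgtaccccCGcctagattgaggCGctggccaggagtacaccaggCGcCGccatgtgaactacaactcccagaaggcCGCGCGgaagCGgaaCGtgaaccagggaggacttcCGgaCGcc
ZNF668 (chr16:31074241-31074400, minus strand): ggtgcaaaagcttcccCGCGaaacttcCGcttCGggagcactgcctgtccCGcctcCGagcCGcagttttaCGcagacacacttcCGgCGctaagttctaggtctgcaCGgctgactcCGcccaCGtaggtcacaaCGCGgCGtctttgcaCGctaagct
HEXIM2 (chr17:45161704-45161874, plus strand): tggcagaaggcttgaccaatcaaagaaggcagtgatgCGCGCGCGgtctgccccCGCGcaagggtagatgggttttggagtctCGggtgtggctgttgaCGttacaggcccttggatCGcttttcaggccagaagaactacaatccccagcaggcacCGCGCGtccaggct
MRPL39 (chr21:25607482-25607564, minus strand): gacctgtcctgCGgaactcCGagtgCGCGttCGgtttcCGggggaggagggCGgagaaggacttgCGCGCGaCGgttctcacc
UBE2J2 (chr1:1273855-1274009, minus strand): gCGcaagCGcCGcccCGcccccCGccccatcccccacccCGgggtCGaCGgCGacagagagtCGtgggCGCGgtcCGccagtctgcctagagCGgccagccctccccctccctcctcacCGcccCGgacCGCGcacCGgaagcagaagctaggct
CLEC16A (chr16:10944409-10944563, plus strand): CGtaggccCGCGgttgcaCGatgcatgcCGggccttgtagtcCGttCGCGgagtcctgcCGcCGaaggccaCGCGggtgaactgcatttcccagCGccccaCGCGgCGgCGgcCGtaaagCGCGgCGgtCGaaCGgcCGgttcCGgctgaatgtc
ITPRIP (chr10:104338677-104338715, minus strand): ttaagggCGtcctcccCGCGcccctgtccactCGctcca
HCST (chr19:35902433-35902528, plus strand): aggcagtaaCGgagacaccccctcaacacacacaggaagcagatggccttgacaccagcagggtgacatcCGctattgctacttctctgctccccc

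The CLEC16A stretch holds 25 CpG in 155 bases and that of UBE2J2 19 in 155. DPM3, which encodes a subunit of dolichol-phosphate mannose synthase, has 16 in 182 bases, and ZNF668, a zinc-finger gene, has 17 in 160. HEXIM2, an inhibitor of the elongation kinase P-TEFb, has 12 in 171 bases, and MRPL39, a protein of the mitochondrial ribosome, has 11 in 83. HCST lies at the other end with 2 CpG in 96 bases. HCST encodes the signalling adaptor DAP10 of natural killer and myeloid cells, and TYROBP beside it encodes the related adaptor DAP12. ITPRIP shows only 39 bases because the peak, with 15 tags, was centred 343 bp upstream of that start. The centre of this peak lay inside the neighbour CFAP58, and the nearest protein-coding start was 288 bp away.

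Most of the touched promoters were CpG-rich, as most promoters of protein-coding genes are. The 20 protein-coding windows under a DMSO-only peak held a median of 22 CpG (3 to 39), against 21 over all 22132 protein-coding windows on chromosomes 1 to 22 and X. At least 10 CpG were found in 17 of the 20 (85%), and in 70.1% of all protein-coding windows. The median GC content was 59.0% under the peaks and 62.3% over all. For peaks of the OPA1 list alone, 27 such windows held a median of 16 CpG, with 10 or more in 59.3%. For shared peaks there were only 3 windows, with 1 at 10 or more. The sequences GCGTGGGCG and GCGGGGGCG, EGR1 sites searched on both strands, were in 5.78% of all 34961 windows. They were in 0 of the 29 windows of all gene types under DMSO-only peaks, with a Wilson upper limit of 11.7% that lies above that share, in 0 of 6 under shared peaks and in 1 of 48 (2.08%) under OPA1-only peaks. Several windows are of neighbouring genes and share bases, so they are not independent of each other.

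**Figure D1:**
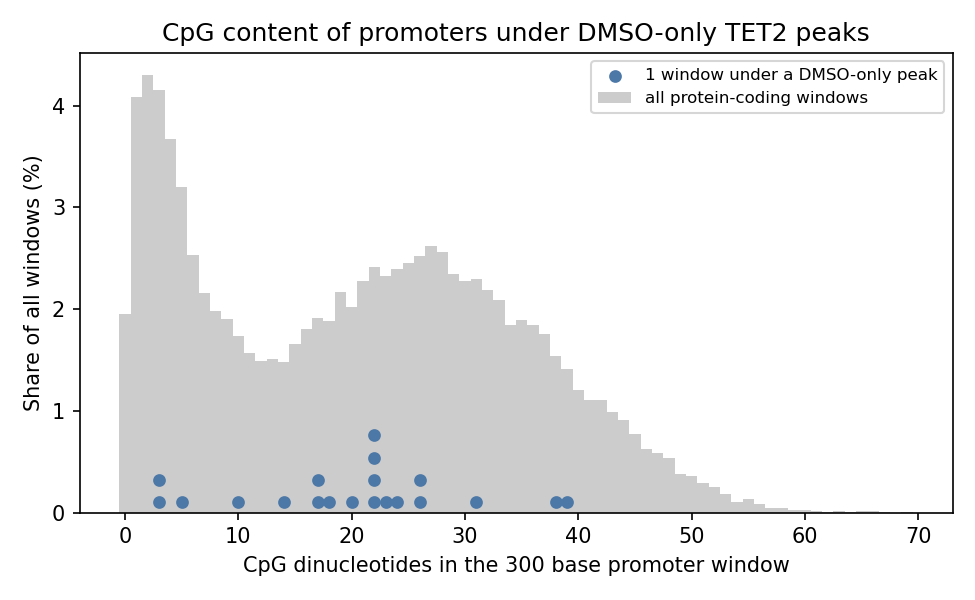
The horizontal axis gives the number of CpG dinucleotides in a 300 base promoter window. Grey bars are the share of all 22132 protein-coding windows in percent, and each blue point is 1 of the 20 windows under a DMSO-only TET2 peak, stacked for display only. The points run from 3 to 39 with a median of 22, across both humps of the grey bars.

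Some of these peaks touched the windows of neighbouring genes that start on opposite strands, and the share of such gene pairs over all windows was not computed. The peak at ZNF668 and ZNF646 (chromosome 16, 31074209 to 31074400) held 11 tags and was centred between both starts. A tag is a sequenced read counted in the peak. The peak of 10 tags at CHUK, the gene of the kinase IKK-alpha in NF-kappa-B signalling, was centred 14 bp from the start of CHUK and 78 bp from that of CHUK-DT, transcribed the other way. The peak of 9 tags at STRADB and TRAK2 was centred 84 and 198 bp upstream of these starts. Peaks of 8 to 12 tags also touched the windows of RBBP5, a core subunit of the KMT2 histone H3K4 methyltransferases, ZMYM2, a zinc-finger gene fused to FGFR1 in some myeloid neoplasms, SPTLC2, an enzyme of sphingolipid synthesis, and DHX8, a splicing helicase. The peak covered the start itself at ZMYM2, while those at RBBP5, SPTLC2 and DHX8 were centred 279, 302 and 104 bp upstream of it. Outside these windows but within 1000 bp of a gene end, peaks of 8 tags lay 418 bp from an end of SP1, a transcription factor of GC-rich promoters, and 218 bp from an end of NGFR, a neurotrophin receptor gene. At RNF185 a peak of 8 tags covered the hairpin of MIR3928 (chromosome 22, 31160062 to 31160119), the only member over a microRNA hairpin.

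Most DMSO-only peaks were small. Their tags ran from 8 to 62 with a median of 9, and 311 of 712 (43.7%) held 8, the lowest count in the list. No more than 10 tags were in 563 (79.1%). The shared DMSO peaks had a median of 13 tags, from 8 to 100, and only 16 of 170 (9.41%) held 8. Together the 712 peaks held 6980 tags over 137900 bp, 0.0353% of the 19782924 filtered tags of the library. The exact Poisson 95% interval runs from 3.45 to 15.8 for 8 tags and from 6.92 to 22.2 for 13. The OPA1 TET2 library was of like depth, with 19779007 tags, but its tags at these positions are not part of a peak list, so a missing peak there does not show missing enrichment.

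**Figure D2:**
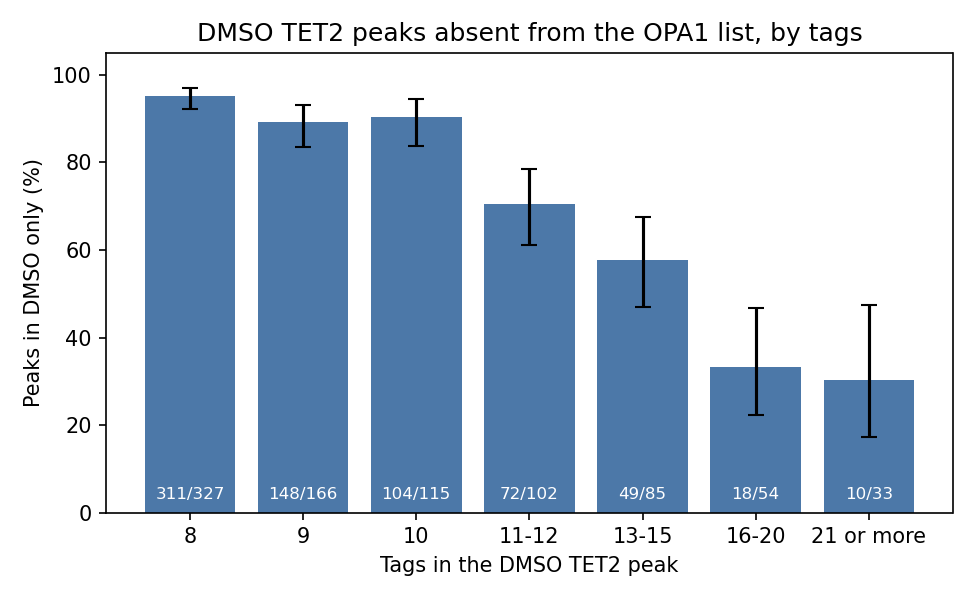
The horizontal axis groups DMSO TET2 peaks by their tags, and bars give the percent without an overlapping OPA1 TET2 peak, with Wilson 95% intervals and the counts inside. The share runs from 95.1% of the 327 peaks with 8 tags to 30.3% of the 33 with 21 or more.

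The share of DMSO peaks missing from the OPA1 list went down with the tags. It was 95.1% (92.2 to 97.0%) of the peaks with 8 tags, 70.6% (61.1 to 78.6%) with 11 or 12, 57.6% (47.0 to 67.6%) with 13 to 15 and 33.3% (22.2 to 46.6%) with 16 to 20. With 21 or more it was 30.3% (17.4 to 47.3%), 10 of 33. The deposited score, which is minus 10 times the log10 of the caller's p-value ran to 102.32 among members, and 18 shared peaks had a higher one. The deposited false discovery rate per peak was no more than 5% in 84 members (11.8%, 9.63 to 14.4%) and in 85 shared peaks (50%, 42.6 to 57.4%). Fold enrichment over the local background, as deposited, had medians of 12.01 for members and 11.91 for shared peaks. All peaks had passed the same p-value cutoff, and at few tags that takes a higher fold. The like medians therefore do not show that members were as enriched as shared peaks.

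Over all 882 DMSO peaks 19.5% held 13 or more tags. Among members these were 77 of 712 (10.8%, 8.74 to 13.3%), and among shared peaks 95 of 170 (55.9%, 48.4 to 63.1%). The 77, set apart here by their tags, had a median fold of 9.57, against 12.2 for the 635 smaller members. Smaller peaks need a higher fold to pass the p-value cutoff, so this difference is partly set by the caller. Of the 77, 39 (50.6%) had a rate of 5% or less, as had 66 of the 95 shared peaks of that size (69.5%).

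Of the 10 members with 21 or more tags, 8 lay on chromosome 1 and 9 had a fold under 9. HIVEP3, a zinc-finger transcription factor gene, held the top pair, a peak of 62 tags (47.5 to 79.5) at 42015957 to 42016977 and one of 51 tags (38.0 to 67.1) at 41738901 to 41739510. Their folds were 4.08 and 4.68, the first of them the lowest of all members. HIVEP3 also carried 2 OPA1-only peaks, with up to 43 tags. It had shared TET2 peaks as well, with 72 and 66 tags in DMSO and 87 and 75 in OPA1. The gene was thus marked in both treatments. SLC2A1, the glucose transporter GLUT1, followed on the same chromosome with 32 tags and a fold of 7.70 (42931167 to 42931617).

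Chromosome 5 gave ANKH, a gene of pyrophosphate and ATP export, with 36 tags and a fold of 7.31 (14809473 to 14810071). PDZD2 on the same chromosome had 17 tags and a fold of 5.29. POLR3GL, a subunit gene of RNA polymerase III, had 28 tags (18.6 to 40.5) and a fold of 6.61, beside an OPA1 TET2 peak described below. FCRL4, an Fc receptor-like gene of B cells, had 21 tags and a fold of 8.46. On chromosome 6, AHI1, a gene of the primary cilium, and DNAH8, a dynein gene, had 18 tags each with folds of 10.15 and 6.94.

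Peaks of 17 tags with a common score of 53.51 lay in SLC12A8, a cotransporter gene, at CHST13, a chondroitin sulfotransferase gene, and at EXOSC4, a subunit gene of the RNA exosome, with folds of 6.35 to 8.63. INPP5D, the gene of the inositol phosphatase SHIP1 that limits PI3K signalling in blood cells, differed from these. It also had 17 tags, but with a fold of 12.2, a score of 85.44 and a peak false discovery rate of 0 (chromosome 2, 233084584 to 233084839).

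Counts by chromosome were looked at once these values had been seen and were not tested. Chromosomes 1, 5, 6 and 8 held 47 of the 77 members with 13 or more tags (61.0%) but 223 of all 712 (31.3%). They held 44.2% of the shared DMSO peaks with 13 or more tags. Of peaks of any size, they held 34.7% of the shared and 33.0% of the OPA1-only ones. The value for OPA1-only peaks with 13 or more tags was not computed. The median fold of the 77 was 8.69 on these chromosomes and 13.1 on the others. Copy number and the tags of the inputs at these positions were not analysed here. Chromosome X held 1 member.

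**Figure D3:**
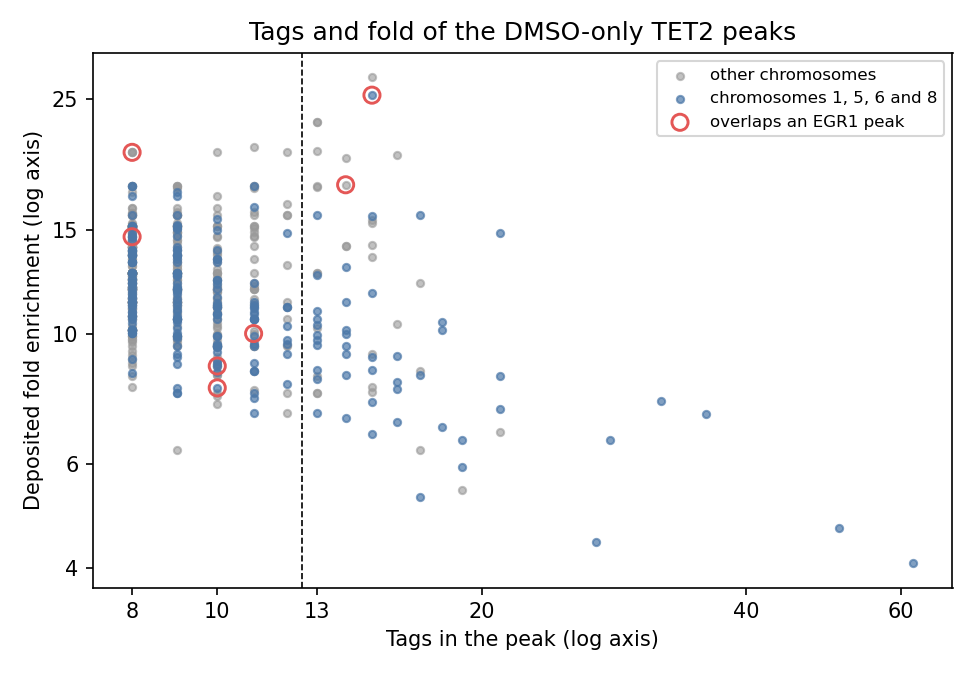
Each point is 1 of the 712 DMSO-only TET2 peaks, with its tags on the horizontal and its deposited fold on the vertical axis, both logarithmic. Blue points lie on chromosomes 1, 5, 6 and 8, red rings mark the 7 that overlap an EGR1 peak, and the dashed line separates peaks with 13 or more tags. Of the 10 peaks with 21 or more tags, 9 have a fold under 9.

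Of the 712 members, 12 had a fold of 20 or more. These held 8 to 16 tags, and they included ITPRIP and CSF1R with 15 tags each. More than 5000 bp from any protein-coding gene the most tags were 27, at chromosome 1, 16726754 to 16727189, with a fold of 4.44. A peak of 21 tags that lay 9589 bp from ENSA, a phosphatase inhibitor gene, had a fold of 14.8 and a peak false discovery rate of 0. Another of 21 tags lay 11170 bp from S100A11, a calcium-binding protein gene, with a fold of 7.45. The next had 21 tags on chromosome 20, 28830987 to 28831312, with a fold of 6.80, and lay 1982278 bp from the nearest protein-coding gene. A peak of 19 tags lay 54264 bp from SLC44A3, a choline transporter-like gene.

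The next comparison asked where the members lay against protein-coding genes. By peak centre, 30 (4.21%, 2.97 to 5.95%) were within 1000 bp of a gene end, 310 (43.5%, 39.9 to 47.2%) elsewhere in a gene and 372 (52.2%, 48.6 to 55.9%) outside genes. The shared DMSO peaks had 3.53%, 47.6% and 48.8%, and the OPA1-only peaks 4.43%, 46.6% and 49.0%, and the intervals of the classes overlapped at each location. Within 1000 bp of the start of a protein-coding gene with a promoter window were 22 of 668 members (3.29%), 6 of 151 shared peaks (3.97%) and 38 of 1395 OPA1-only peaks (2.72%). Far from genes the shares were further apart. More than 100000 bp from a protein-coding gene were 165 members (23.2%, 20.2 to 26.4%), 22 shared peaks (12.9%, 8.70 to 18.8%) and 277 OPA1-only peaks (18.3%, 16.4 to 20.3%). Among peaks with 13 or more tags these shares were alike, at 11 of 77 members (14.3%) and 13 of 95 shared peaks (13.7%). More than 1000000 bp away were 18 members (2.53%, 1.61 to 3.96%) and 27 OPA1-only peaks (1.78%, 1.23 to 2.58%), with overlapping intervals. None of the 170 shared peaks lay that far, where a count of 0 has a Wilson upper limit of 2.21%. No test was made of these differences, since peaks of 1 library are not replicates.

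**Figure D4:**
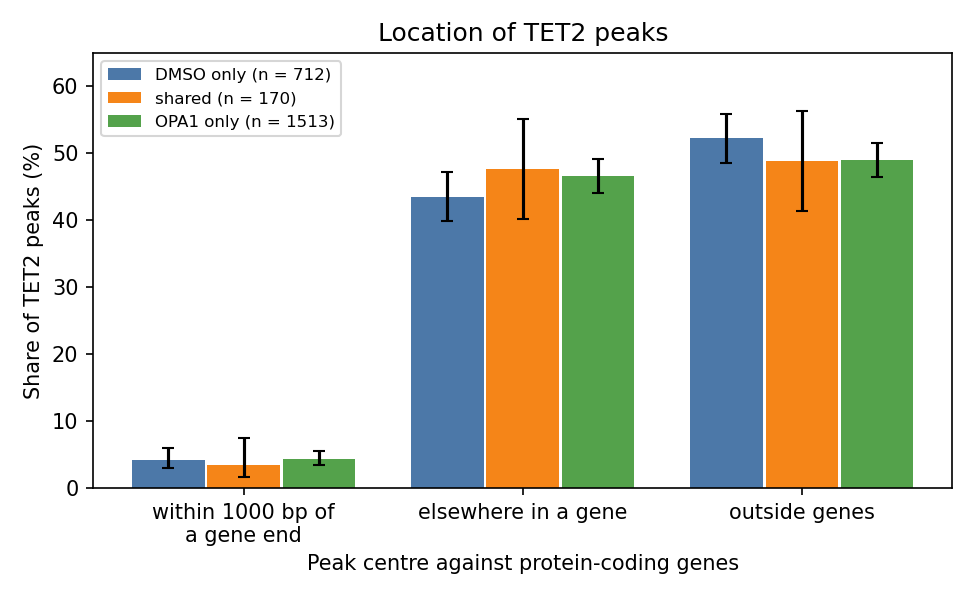
Bars give the share in percent of the 712 DMSO-only, 170 shared and 1513 OPA1-only TET2 peaks within 1000 bp of a protein-coding gene end, elsewhere in such a gene, or outside, with Wilson 95% intervals. At each location the 3 intervals overlap.

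A gene was taken as marked when a peak centre lay in it or within 5000 bp. DMSO-only peaks marked 399 of 19974 protein-coding genes (2.00%), against 849 (4.25%) for OPA1-only and 101 (0.506%) for shared DMSO peaks. Marked genes were long, with a median of 108767 bp against 24170 bp over all protein-coding genes, and 102009 bp for those marked by OPA1-only peaks. Of the 399 genes, 342 had no OPA1 TET2 peak of any kind. Another 55 were also marked by an OPA1-only peak at another position, 13.8% of the 399 and 6.48% of the 849. They included AHI1, with 18 tags in DMSO and 23 in OPA1 at sites 42179 bp apart, and INPP5D, with 17 and 15 tags 81070 bp apart. SLC12A8 had 17 and 11 tags, PTCHD4 15 and 22, CDH12, a cadherin gene, 13 and 18, and AHNAK, a giant scaffold protein gene, 12 and 12. At these genes each treatment had a TET2 peak, at different positions in or near the gene.

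In 12 gene lists, 13 of 321 genes (4.05%) were marked by a DMSO-only peak, beside 2.00% of all protein-coding genes. This was not particular to members. OPA1-only peaks marked 30 of the 321, beside 4.25% of all protein-coding genes, and shared DMSO peaks marked 7, beside 0.506%. The lists were drawn up with earlier results of these data known, so their counts are a description only. Of 31 monocyte and granulocyte genes 3 were marked: CSF1R, the M-CSF receptor of macrophages, ITGB2, the beta-2 integrin chain CD18, and TYROBP. OPA1-only peaks marked 5 genes of that list and shared DMSO peaks 1. The CSF1R peak (15 tags, fold 25.4) lay in the gene, 31365 bp downstream of its outermost start and 4554 bp from another start of CSF1R in the RefSeq windows. The ITGB2 peak (9 tags) lay 2483 bp beyond the gene, which also had an OPA1-only peak. The TYROBP peak is the one shown at HCST, 1888 bp beyond TYROBP, with 9 tags, a fold of 15.2 and a peak false discovery rate of 4.96%. That rate was 0 at CSF1R and 9.45% at ITGB2.

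Of 28 myeloid transcription factors 2 were marked. They were RARA, the retinoic acid receptor gene rearranged in promyelocytic leukaemia, with 11 tags, and BATF3, a dendritic cell factor, with 9 tags 2915 bp beyond the gene. Their peak false discovery rates were 8.21% and 8.65%. Of 30 immediate early genes 2 were marked. JUNB, an AP-1 subunit gene, had 8 tags 1136 bp upstream of its start, within the neighbour HOOK2 (chromosome 19, 12790279 to 12790422), and ZFP36, whose product degrades cytokine mRNA, had 8 tags 4079 bp upstream. Both peaks held the lowest count in the list, with folds of 13.7 and 12.7 and peak false discovery rates of 8.59% and 9.27%.

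Of 33 leukaemia and stem cell regulators, HOXA3 and HOXA5 were marked by 1 peak of 15 tags (chromosome 7, 27137322 to 27137589, fold 15.6). It lay inside HOXA3 and 3597 bp beyond HOXA5, and the nearest OPA1 TET2 peak was 2332674 bp away. Of 28 TET and DNA methylation genes DNMT3A, a de novo DNA methyltransferase, was marked, with 10 tags inside the gene. OPA1-only peaks marked 5 genes of that list. SMAD2 (8 tags) and TGFB1 (11 tags, 2712 bp beyond the gene) were marked of 30 growth factor and receptor signalling genes, and GNAS (10 tags) of 30 G protein and cAMP genes. Peak false discovery rates were 3.82% at HOXA3, 2.86% at TGFB1, 9.28% at DNMT3A and GNAS, and 10.59% at SMAD2. CSF1R and TGFB1 were also the 2 members of 30 textbook EGR1 targets. None of the 10 opioid receptor and peptide genes, 28 apoptosis genes, 24 housekeeping genes or 28 genes of other lineages was marked. With 2.00% of all protein-coding genes marked, finding none in lists this short does not set them apart.

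DMSO-only peaks were mostly far from any OPA1 TET2 peak. The distance to the nearest one had a median of 477486 bp, and 529 of 712 members (74.3%) lay within 1000000 bp, 130 (18.3%) within 100000 bp, 15 (2.11%) within 10000 bp and 5 (0.702%) within 1000 bp. The distance is part of the choice of members and is given as a description. Just inside the limit, the peak in RARA (chromosome 17, 40322860 to 40323039) lay 35 bp from an OPA1 peak of 17 tags. That at POLR3GL (chromosome 1, 145980096 to 145980471) lay 37 bp from one of 53 tags. DRC10 followed with 10 tags, 156 bp from an OPA1 peak of 15 tags. PCED1B had 15 tags 560 bp from a peak of 14 tags, and LONP2, a peroxisomal protease gene, 12 tags 802 bp from a peak of 12 tags. At these 5 sites both libraries had a peak within 1000 bp. Just outside the limit, the shared peaks with the shortest overlap shared 85 bp (chromosome 3, 139922327 to 139922454, 10 tags in DMSO and 11 in OPA1), 95 bp (PRKCZ, 9 and 17), 96 and 101 bp, and 113 bp (NOTCH1, 10 and 13). No shared peak overlapped by less than 85 bp. The farthest members lay on chromosome 21, including 1 in TPTE, at 10357475 to 10995165 bp from the nearest OPA1 TET2 peak.

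**Figure D5:**
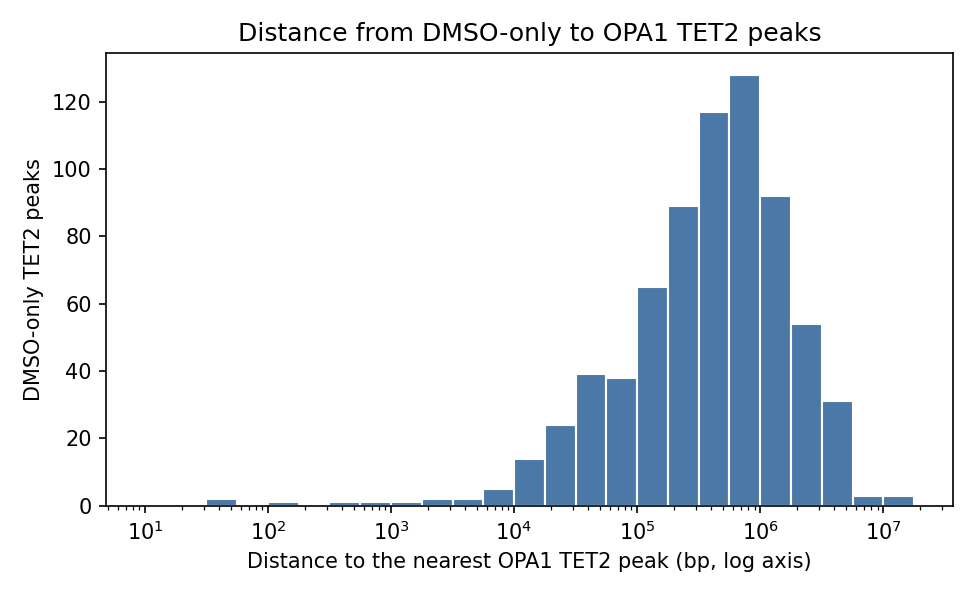
The histogram counts the 712 DMSO-only TET2 peaks by their distance to the nearest OPA1 TET2 peak, on a logarithmic axis in bp. The bulk lies above 100000 bp, and 15 peaks lie within 10000 bp.

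The last comparison asked how often an EGR1 peak coincided. Of all 882 DMSO TET2 peaks, 0.907% shared at least 1 bp with a DMSO EGR1 peak and 2.15% with an OPA1 EGR1 peak. Among members 5 of 712 (0.702%, 0.300 to 1.63%) met a DMSO EGR1 peak, and among shared peaks 3 of 170 (1.76%, 0.602 to 5.06%). With OPA1 EGR1 peaks the classes were far apart: 2 members (0.281%, 0.0771 to 1.02%) against 17 shared peaks (10.0%, 6.34 to 15.4%). Among peaks with 13 or more tags it was 0 of 77 members, which allows up to 4.75% by the Wilson limit, against 14 of 95 shared peaks (14.7%, 8.99 to 23.2%). Of OPA1-only TET2 peaks, 7 of 1513 (0.463%) met an OPA1 EGR1 peak. The OPA1 TET2 list, which splits members from shared peaks, and the OPA1 EGR1 list were both called against the OPA1 input. Shared peaks have a call in that TET2 list and members have none, so this contrast is tied to the choice of members. The part of the input in the difference between members and shared peaks was not tested.

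At CSF1R the EGR1 peak of 10 tags was centred 33 bp from the TET2 peak of 15 tags. On chromosome 20 a TET2 peak of 14 tags and a fold of 17.9 (43752569 to 43752835), 25700 bp from GTSF1L, met an EGR1 peak of 9 tags centred 15 bp away. In WDR70 the TET2 peak had 10 tags and the EGR1 peak 11, with centres 110 bp apart. A pair with 8 tags in each list lay on chromosome 11 (53987488 to 53987576), 615537 bp from the nearest protein-coding gene. Its TET2 peak had the highest score of all members, 102.32. Whether reads map to a single place at this and the other sites far from genes, or whether they lie in repeats, was not analysed. The OPA1 EGR1 peaks that met members lay on chromosome 13, 720313 bp from SLITRK5 (11 tags for TET2 and 12 for EGR1), and on chromosome 8 (10 and 9 tags). The 7 EGR1 peaks had peak false discovery rates of 17.4 to 44.4%. The OPA1 EGR1 peaks that met shared TET2 peaks had rates of 16.13 to 23.35%, apart from the 1 at PGK1 with 0. CSF1R and WDR70 were the only genes marked by a member that coincided with an EGR1 peak of either treatment.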

How the data were processed

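The 4 deposited files are lists of peaks, 1 per ChIP library, called by the authors with MACS 1.4.2 against the input of the same treatment, per the file headers. The headers give a p-value cutoff of 1e-05. Tags were 50 bp long, with 1 kept per position. The submitters' processing notes name Bowtie2 2.2.6, HOMER and GRCh38 (hg38). The deposited tags are raw counts per peak. The deposited score is minus 10 times the log10 p-value, the deposited fold is a ratio to the local background, and the false discovery rate was deposited in percent. Filtered tags per ChIP library ran from 19779007 to 19900311.

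Overlap was at least 1 shared bp. Genes came from a RefSeq table of GRCh38.p14 without exons. Shares have Wilson 95% intervals, by scipy 1.17.1. Sequences came from RefSeq promoter windows of the same build. No other genome sequence was held, so repeats and unique mapping of reads were not analysed for any peak. The overlap and location steps were tested on simulated data. Named members were those with the most tags (12 at genes plus a tie, and 5 outside), the 10 with the most tags at protein-coding starts, those at EGR1 peaks or in the 12 gene lists, genes marked repeatedly or in both treatments, and those nearest to or farthest from an OPA1 TET2 peak. CLEC16A, STRADB, TRAK2, ZMYM2, SPTLC2, DHX8, SP1, NGFR and MIR3928, and the chromosome groups, were picked once the values had been seen. Peak lists hold no expression, so the identity of the cell line was not checked. The members and lists were chosen with earlier results of these data known. Each group had 1 library, so no difference was tested. Stricter limits on peaks, other overlap rules and other gene sets were tried as alternatives. No promoter window was held for chromosome 8. Some items that these rules name are not reported here.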

Additional observations from a re-analysis of the deposited data

Results flagged for a closer look

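Peaks on unplaced, random or alternate contigs were left out of the comparisons above. On these contigs 8 DMSO TET2 peaks had no overlapping OPA1 TET2 peak and held 8 to 24 tags each. The OPA1 tags at these positions are not known from the peak lists, so no difference between the treatments is shown. They are given because they lie outside the chromosomes compared.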

How the results depend on the processing

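Requiring an OPA1 peak to cover 50% of the DMSO peak, or counting an OPA1 peak within 500 bp as shared, gave 714 and 709 members. Keeping contigs gave 720. No other value moved beyond its interval, or a count by more than 1.5 times, under these 3 settings. Limited to a false discovery rate of 5% or less, 84 members remained, 49.7% of the DMSO TET2 peaks within that limit. Of these 84 members 46.4% had 13 or more tags, 7.14% lay within 1000 bp of a gene end and 58.3% marked a gene. Their median distance to an OPA1 TET2 peak was 398719 bp, and 3 met a DMSO and 0 an OPA1 EGR1 peak. With a score of at least 60, 181 members remained, 62.0% of the DMSO TET2 peaks with such a score. Of these 181 members 24.9% had 13 or more tags, 6.08% lay within 1000 bp of a gene end and 39.8% elsewhere in a gene. Their median distance was 404066 bp, and again 3 and 0 met EGR1 peaks. Both limits leave fewer peaks with more tags. With all RefSeq genes in place of protein-coding ones, 9.69% lay near a gene end, 53.4% elsewhere in a gene and 36.9% outside. Counting only centres inside genes, 45.2% marked a gene. No EGR1 peak was added within 500 bp. No paired analysis was possible because each group has 1 library. At this depth most members rest on 8 to 10 tags, so presence in 1 list alone is not shown to be a difference in binding.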

Other observations

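Some members lay beside each other. In AFF1, a gene of the super elongation complex that is fused to KMT2A in leukaemia, DMSO-only peaks of 8 and 11 tags were 299 bp apart (chromosome 4, 86961227 to 86961964). In MAP4K2, a kinase gene, 2 peaks of 8 tags were 130 bp apart. In all, 3 pairs of members lay within 500 bp of each other.

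As many as 18 genes were marked by 2 DMSO-only peaks. Apart from HIVEP3 these peaks held 8 to 15 tags. ARHGAP15, a Rac-inactivating gene of blood cells, had peaks of 10 and 11 tags 243988 bp apart, and RAB27A, a gene of granule secretion, had 10 and 8 tags 55913 bp apart. ZNF445 had 15 and 8 tags 34641 bp apart, and RERE, a corepressor gene, 8 and 8 tags 253483 bp apart. Neither the pairs nor the repeated genes were tested against chance.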
